A study of Mus musculus with 6 samples.

Results

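The genes described here are 10 members of the early response to extracellular signals: the zinc finger factor genes Egr1, Egr2 and Egr3, the nuclear receptor genes Nr4a1, Nr4a2 and Nr4a3, the immediate early response genes Ier2, Ier3 and Ier5, and the antiproliferative gene Btg2. They were chosen by name, and all 10 were found among the 24340 genes of the deposited table. Poly-A RNA was sequenced from cultures of newborn C57BL/6 mouse brain labelled as primary microglia, the macrophages that reside there. In 3 libraries the cells had been given C13 (10 uM, labelled AG2P145D/C13 and described as an inhibitor of the kinase MOK) for 1 h before LPS, a bacterial membrane component, was added at 1 ug/ml for 5 h. In the other 3 libraries DMSO vehicle took the place of C13, with the same LPS step. Every library had therefore received LPS, and the values show how LPS-exposed cells differed with C13, not how LPS moved these genes. The labels call the libraries biological replicates without naming a culture or litter for any, and every p-value below reflects variation among these libraries alone, which may in part be technical.

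Early response genes are switched on within minutes of a signal by transcription factors that already sit in the cell, such as SRF with its ternary complex partners (activated through ERK) and CREB (activated by phosphorylation), and need no new protein. Their RNAs are short-lived, and most of the proteins are regulators that set the next wave of transcription or feed back on the signal. In macrophages and microglia exposed to LPS most of them peak early, so a sample taken hours later reads the level that remains or is renewed rather than the peak.

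The promoters of the members are shown first, because the members differ in the signal-responsive letters that these windows hold. Promoter windows from 250 bases before to 50 bases after the gene start were taken from RefSeq (GRCm38.p6) and matched 7 of the 10 members by symbol. Egr1, Egr3 and Ier2 had no window, so no motif was searched for them. The 250 bases before the start are printed 5′ to 3′ on the gene's strand for 5 of them. Capitals mark TGACG on either strand (CGTCA when read on the other strand), the core of the cAMP response element (CRE) bound by CREB, and the CArG box, the motif bound by SRF. The windows lie at chr15:101266596-101266845 (Nr4a1, plus strand), chr2:57124004-57124253 (Nr4a2, minus strand), chr4:48045055-48045304 (Nr4a3, plus strand), chr10:67537619-67537868 (Egr2, plus strand) and chr1:134079156-134079405 (Btg2, minus strand).
Nr4a1: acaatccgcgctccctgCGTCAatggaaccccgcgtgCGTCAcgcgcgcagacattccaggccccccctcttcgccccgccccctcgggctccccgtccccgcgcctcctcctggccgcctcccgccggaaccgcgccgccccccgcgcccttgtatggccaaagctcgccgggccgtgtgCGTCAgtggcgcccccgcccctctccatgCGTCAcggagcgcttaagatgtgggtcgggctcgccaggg
Nr4a2: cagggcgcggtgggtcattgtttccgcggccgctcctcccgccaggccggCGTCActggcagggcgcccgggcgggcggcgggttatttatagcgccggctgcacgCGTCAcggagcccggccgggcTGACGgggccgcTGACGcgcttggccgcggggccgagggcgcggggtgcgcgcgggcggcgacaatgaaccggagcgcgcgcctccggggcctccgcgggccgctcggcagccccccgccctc
Nr4a3: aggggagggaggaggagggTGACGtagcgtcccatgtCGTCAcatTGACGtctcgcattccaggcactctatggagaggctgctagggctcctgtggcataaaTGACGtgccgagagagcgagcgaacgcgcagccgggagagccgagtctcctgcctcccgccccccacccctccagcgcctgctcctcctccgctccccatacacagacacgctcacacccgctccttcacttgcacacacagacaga
Egr2: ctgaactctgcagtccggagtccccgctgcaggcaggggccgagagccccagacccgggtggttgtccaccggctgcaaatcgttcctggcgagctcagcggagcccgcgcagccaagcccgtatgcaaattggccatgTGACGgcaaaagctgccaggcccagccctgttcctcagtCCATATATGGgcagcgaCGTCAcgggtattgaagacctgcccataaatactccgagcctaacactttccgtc
Btg2: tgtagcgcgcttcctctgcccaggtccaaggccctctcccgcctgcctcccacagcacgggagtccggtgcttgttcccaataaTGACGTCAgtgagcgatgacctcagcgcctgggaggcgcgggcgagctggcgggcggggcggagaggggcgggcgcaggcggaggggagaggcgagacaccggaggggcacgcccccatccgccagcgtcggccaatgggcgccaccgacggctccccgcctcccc

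TGACG occurred 4 times in each of the 3 Nr4a windows, 2 times in that of Egr2 and 2 times in that of Btg2, while the windows of Ier3 and Ier5 held none. In Btg2 both matches overlapped in 1 complete CRE, TGACGTCA, from 166 to 159 bases before the start, a sequence that 3.39% of the windows of 8677 tested genes held. At least 1 TGACG was held by 33.1% of those windows and at least 4 by 0.588%, which is 51 genes including the 3 Nr4a genes. The cut-off of 4 equals the count in the Nr4a windows, so the 0.588% is a description and no test of them. Among the other 48 genes with at least 4, the median difference with C13 was 0.035 in log2(FPKM + 1). In 3 of them (6.25%) all C13 libraries lay above all vehicle libraries, against 6.83% of all tested genes, and in 3 below, against 9.78%. The part of TGACG in the differences with C13 was not tested. The CArG box was found only in Egr2 among the 7 members, from 72 to 63 bases before the start, and in 1.38% of all windows. The kappaB motif occurred in Ier3 and Nr4a1 and in 5.39% of all windows. The ETS core CCGGAA occurred in Nr4a1 and in 30.1% of all windows. The letters of the TATA box, TATAAA, occurred in Nr4a2 and in 7.08% of all windows. In Nr4a2 they were read on the other strand, from 164 to 159 bases before the start. The EGR site GCGTGGGCG, the NR4A response element AAAGGTCA and the AP-1 site TGANTCA were found in 0 of the 7 member windows, and in 1.18%, 0.761% and 4.92% of all windows.

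All 10 members are annotated as protein-coding in GENCODE release M21, and no other row of the table or GENCODE gene overlapped any of them. The loci given by the table, on mm10, are chromosome 18 from 34861207 to 34864956 (Egr1, plus strand), chromosome 10 from 67537869 to 67542188 (Egr2, plus) and chromosome 14 from 70077445 to 70082613 (Egr3, plus). Those of the nuclear receptor genes are chromosome 15 from 101266846 to 101274794 (Nr4a1, plus), chromosome 2 from 57107226 to 57124003 (Nr4a2, minus) and chromosome 4 from 48045305 to 48086446 (Nr4a3, plus). Those of the remaining members are chromosome 8 from 84661331 to 84662852 (Ier2, minus), chromosome 17 from 35821713 to 35822911 (Ier3, plus), and on chromosome 1 from 155096367 to 155099636 (Ier5, minus) and from 134074865 to 134079155 (Btg2, minus). The longest coding transcript of the members had a median of 2 exons and the genes a median span of 5287 bp, against 9 exons and 23387 bp over the tested genes with an annotation. Ier2 and Ier5 have 1 exon, Ier3, Btg2 and the 3 Egr genes have 2, and the 3 Nr4a genes have 8. The Nr4a genes were not short either, with spans of 20527 bp for Nr4a1, 17174 bp for Nr4a2 and 41295 bp for Nr4a3, while the other 7 members spanned 1240 to 6714 bp. The transcripts themselves were of ordinary length, with a median of 3121 nt against 3080 nt.

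The 3′ UTR pentamer ATTTA, the letters at the centre of AU-rich elements that mark unstable RNAs, was densest in Ier3, with 8.16 per kb, and in Nr4a1, with 5.52 per kb. The median over tested genes was 1.34 per kb, and Ier2 had 0. The longer TATTTAT occurred 4 times in Ier3, 2 times in Nr4a3 and 1 time each in Nr4a2 and Btg2, so that 4 of 10 members held it, against 30.6% of 10727 tested genes.

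The table gives FPKM, fragments per kilobase of transcript scaled to the library total, so that levels of different genes can be set side by side. With C13 the order of mean levels was Ier3, Ier5, Egr1, Btg2, Ier2, Nr4a1, Nr4a2, Egr2, Nr4a3 and Egr3, spanning 211 to 1.16 FPKM. With vehicle it was Ier3, Ier5, Egr1, Ier2, Btg2, Nr4a1, Nr4a2, Egr2, Egr3 and Nr4a3, spanning 232 to 0.861 FPKM. The ranges of 3 libraries overlapped between neighbours for Btg2 and Ier2 and for Ier2 and Nr4a1 with C13. With vehicle they overlapped for Egr1 and Ier2, Ier2 and Btg2, Nr4a2 and Egr2, and Egr3 and Nr4a3. The libraries of Nr4a1 and Ier2 thus overlapped with C13, whereas with vehicle all values of Nr4a1 lay below those of Ier2. Read totals are not in the table, but the size of the smallest steps above its lowest value puts the depth at about 11330000, 11590000 and 11150000 fragments for C13 replicates 1, 2 and 3 and 8920000, 10810000 and 10750000 for vehicle replicates 1, 2 and 3. At these depths Egr3 rests on about 37 to 60 fragments per library and Nr4a3 on 38 to 111, against 1195 to 1817 for Egr1 and 2165 to 3208 for Ier3.

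**Figure D1:**
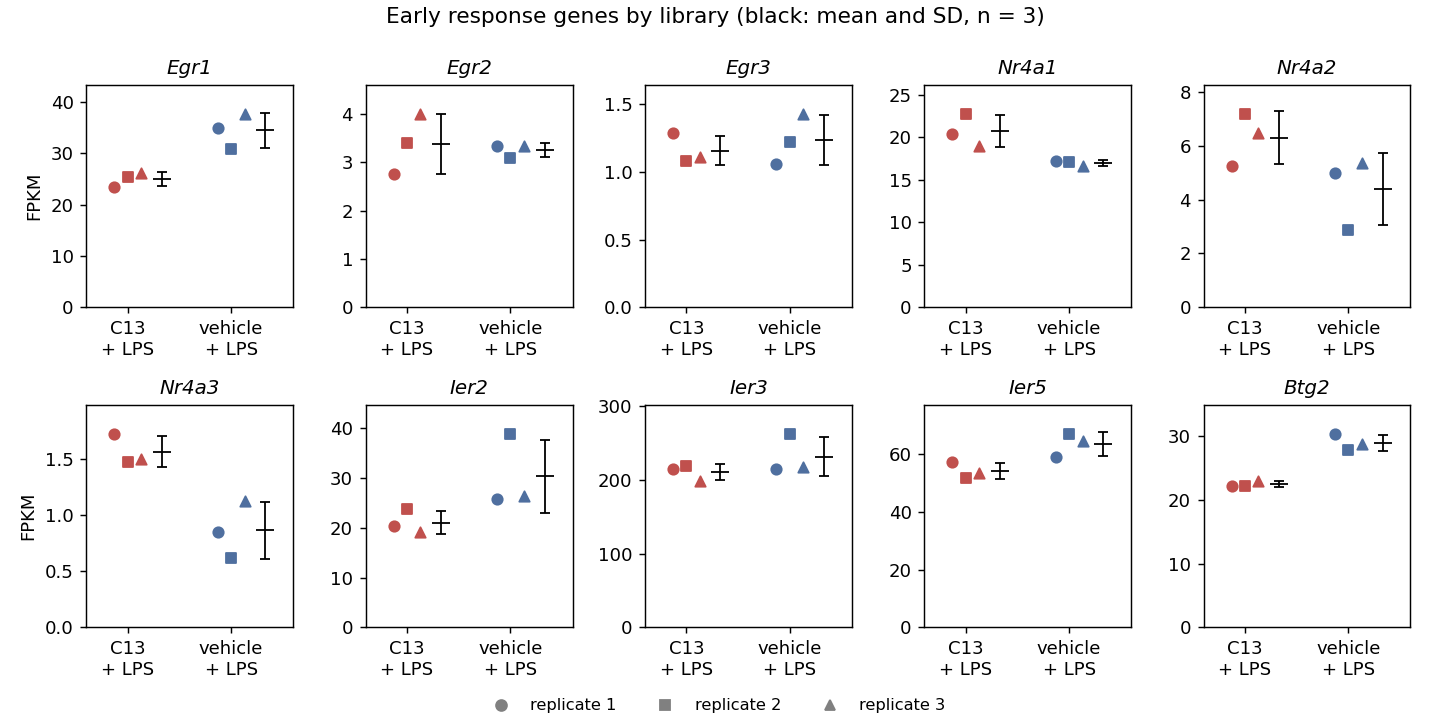
FPKM (linear axes from 0) of the 10 genes in each of the 6 libraries, C13 with LPS on the left and vehicle with LPS on the right of each panel, with symbols for replicates and the mean and SD (n = 3) in black. Egr1, Ier2, Ier5 and Btg2 lie lower and Nr4a1 and Nr4a3 higher in all 3 C13 libraries than in all 3 vehicle libraries.

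Vehicle replicate 2 stood apart from the other libraries and bears on several members. Its median correlation with the others across genes was 0.969, against 0.984 to 0.989 for the rest, and its FPKM sum was 634451, against 504674 to 534757. Relative to the mean of vehicle replicates 1 and 3, it was higher by a median of 0.38 in log2(FPKM + 1) over tested genes with transcripts of up to 1948 nt, and the median for transcripts of 4595 nt and longer was -0.40. By GC the median was -0.29 for transcripts of up to 45.4% and 0.26 for those of 55.0% and above. Among the members its value on the same scale was 0.56 for Ier2 and 0.28 for Ier3, whose transcripts are 1522 and 1131 nt long. It was -0.67 for Nr4a2 and -0.29 for Nr4a3, at 3568 and 5720 nt. The value of Nr4a2 lay below the median of -0.082 over tested genes of 3081 to 4594 nt. In that range Egr3, Ier5 and Egr1 had -0.011, 0.12 and -0.23. Nr4a1, Egr2 and Btg2 had 0.011, -0.084 and -0.087, where the median for 1949 to 3080 nt was 0.13. How far length or GC accounts for these values of vehicle replicate 2 was not tested. Each member's difference is given with and without this library where the 2 values diverge. With a spline on transcript length and GC taken out of each library, an alternative chosen after seeing the data, the difference between C13 and vehicle was -0.45 for Egr1, -0.34 for Btg2, -0.40 for Ier2 and 0.42 for Nr4a2, and 0 members passed.

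The labelled cell type was checked against its markers. C1qa and Csf1r, genes of microglia and other macrophages, averaged 642 and 64.4 FPKM with C13 and 759 and 60.7 FPKM with vehicle, while Siglech sat at 0.01 FPKM, the table's floor, in all 6 libraries. P2ry12, Cx3cr1, Gpr34 and Tmem119, also on the microglial list, were far lower than C1qa. They averaged 1.71, 2.34, 1.13 and 6.37 FPKM with C13 and 2.54, 2.42, 1.07 and 6.10 FPKM with vehicle. Among these only P2ry12 had groups without overlap, lower with C13. Fibroblast and mural markers were abundant: the 8 genes summed to 5029 to 5430 FPKM with C13 and 5295 to 5991 FPKM with vehicle, and Col1a1 alone averaged 1842 ± 60.3 FPKM with C13 and 1997 ± 143 FPKM with vehicle (SD, n = 3 each). The 14 microglial markers summed to 2433 to 2597 FPKM with C13 and 2533 to 3438 FPKM with vehicle. Most of each sum was C1qa, C1qb and C1qc, and the 3438 FPKM was that of vehicle replicate 2. The 6 neuronal markers summed to 82.0 to 92.5 FPKM with C13 and 86.2 to 113 FPKM with vehicle, nearly all of it Stmn2 and Tubb3, while Rbfox3, Snap25 and Syt1 lay between 0.01 and 0.065 FPKM in every library. The 6 endothelial markers summed to 8.71 to 9.91 FPKM with C13 and 6.68 to 11.6 FPKM with vehicle. The 8 astrocyte markers summed to 64.1 to 112 FPKM with C13 and 47.0 to 58.9 FPKM with vehicle, without overlap. Gfap had 5.80, 35.6 and 8.79 FPKM with C13 against 2.74, 5.18 and 4.74 FPKM with vehicle. Gfap, Aqp4, Slc1a2, Slc1a3 and Gja1 were higher in all C13 libraries than in all vehicle libraries, while the groups of Aldh1l1, S100b and Sox9 overlapped. The 8 oligodendrocyte lineage markers summed to 45.3 to 53.5 FPKM with C13 and 44.3 to 55.7 FPKM with vehicle, most of it Cspg4 at 40.6 FPKM with C13 and 46.8 FPKM with vehicle, and Mog sat at the floor in all libraries. Pdgfra, also found in fibroblasts, had 4.30, 7.87 and 5.82 FPKM with C13 and 3.66, 2.95 and 3.76 FPKM with vehicle, without overlap. The part of such cells in the results was not tested, and in bulk RNA fewer cells of a type cannot be told apart from less RNA per cell.

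The comparison asked how the early response genes stood in LPS-exposed cells with C13 against vehicle. The members differed in direction. The NR4A genes had higher mean levels with C13 (ratios of 1.22 to 1.81), though the libraries of Nr4a2 overlapped. Egr1, Btg2, Ier2 and Ier5 had lower mean levels (0.694 to 0.854), and the libraries of Egr2, Egr3 and Ier3 overlapped (0.912 to 1.04). With all 6 libraries 0 of 10 members passed limma's test at an adjusted p under 0.05, as did 0% of the 11412 genes tested. At an unadjusted p under 0.05 in limma there were 2 members higher and 4 lower, against 293 genes higher (2.57%) and 544 lower (4.77%) over the whole table. The 3 C13 libraries lay above all 3 vehicle libraries in 2 members (6.83% of tested genes did so) and below them in 4 members (9.78% of tested genes). Without vehicle replicate 2, limma called 0 members higher, against 0.412% of tested genes, and 2 members lower, Egr1 and Btg2, against 1.07% of tested genes. The median difference of the 10 members was -0.089 in log2(FPKM + 1), beside -0.00028 over all genes tested. With rescaling to TPM it was 0.019, beside a median of 0.13 over all genes, which is -0.11 relative to them.

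**Figure D2:**
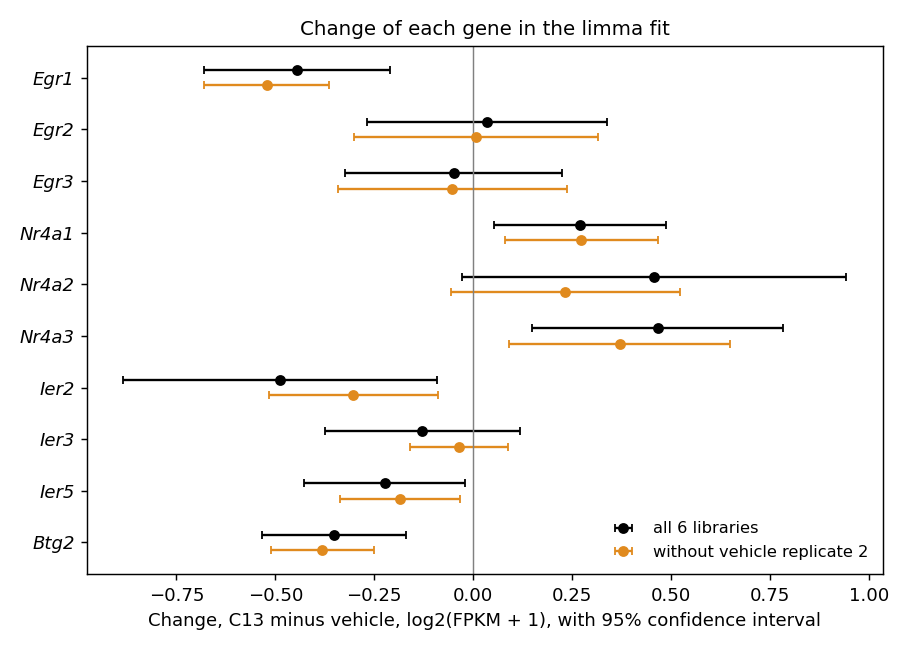
Change of each gene in log2(FPKM + 1), C13 minus vehicle, with its 95% confidence interval from limma, with all 6 libraries in black and without vehicle replicate 2 in orange. The upper ends of the intervals of Egr1 and Btg2 are the farthest below 0, while Ier2 has the lowest estimate and lower end with all 6 libraries. The intervals of Nr4a1 and Nr4a3 lie above 0, and those of Nr4a2 and Ier2 shrink when the library is left out.

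Egr1, the zinc finger factor that binds GC-rich promoter sites soon after ERK is activated, was lower with C13. It had 23.5, 25.3 and 26.2 FPKM in C13 replicates 1, 2 and 3, against 35.0, 30.8 and 37.7 FPKM in vehicle replicates 1, 2 and 3. All C13 libraries lay below all vehicle libraries, and the closest were C13 replicate 3 and vehicle replicate 2. The mean was 25.02 ± 1.38 FPKM with C13 and 34.5 ± 3.47 FPKM with vehicle (SD, n = 3 each), a ratio of 0.725. The difference in log2(FPKM + 1) was -0.44 with a 95% interval of -0.68 to -0.21 (limma, unadjusted p = 0.00272, adjusted p = 0.365). Without vehicle replicate 2, the lowest of the vehicle libraries, the change was -0.52 and the adjusted p in limma 0.0235, and Egr1 fell by that test.

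Egr2, its paralog with roles in myelinating glia and in macrophages, had overlapping groups. It had 2.76, 3.40 and 4.0 FPKM in C13 replicates 1, 2 and 3, against 3.33, 3.09 and 3.33 FPKM in vehicle replicates 1, 2 and 3. The C13 libraries lay on both sides of the vehicle libraries. The difference was 0.035 with a 95% interval of -0.27 to 0.34 (limma adjusted p = 0.946). Egr3, a further paralog known from neurons and lymphocytes, had 1.28, 1.08 and 1.11 FPKM in the C13 libraries, against 1.06, 1.22 and 1.43 FPKM in the vehicle libraries, and the groups overlapped (difference -0.049, 95% interval -0.32 to 0.23, limma adjusted p = 0.916). Both genes are scarce, and at about 1 FPKM the log2(FPKM + 1) scale understates a fold difference. The value for Egr2 was -0.049 with quantile normalization and -0.064 without C13 replicate 3, and that for Egr3 was 0.012 without vehicle replicate 3.

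The nuclear receptors of the NR4A family bind DNA without a known classical ligand, are induced by cAMP and inflammatory signals, and in macrophages and microglia have been described as brakes on inflammatory transcription. Nr4a1 (Nur77) had 20.4, 22.8 and 19.0 FPKM in C13 replicates 1, 2 and 3, against 17.2, 17.1 and 16.6 FPKM in vehicle replicates 1, 2 and 3. Every C13 library lay above every vehicle library, and the vehicle libraries were tightly grouped. The mean was 20.7 ± 1.90 FPKM with C13 and 17.0 ± 0.331 FPKM with vehicle (SD, n = 3 each), a ratio of 1.22. The difference in log2(FPKM + 1) was 0.27 with a 95% interval of 0.05 to 0.49 (limma, unadjusted p = 0.0213, adjusted p = 0.588), and it was 0.27 without vehicle replicate 2 as well (limma adjusted p = 0.16).

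Nr4a3 (Nor1), the scarcest of the family, had 1.72, 1.47 and 1.49 FPKM in C13 replicates 1, 2 and 3, against 0.844, 0.619 and 1.12 FPKM in vehicle replicates 1, 2 and 3. Again every C13 library lay above every vehicle library, with vehicle replicate 2 lowest. The mean was 1.56 ± 0.137 FPKM with C13 and 0.861 ± 0.251 FPKM with vehicle (SD, n = 3 each), a ratio of 1.81, the largest among the members. On the log2(FPKM + 1) scale the change was 0.47 with a 95% interval of 0.15 to 0.78 (limma, unadjusted p = 0.00999, adjusted p = 0.485), and 0.37 without vehicle replicate 2 (adjusted p = 0.179). At this low level the scale matters: with a pseudocount of 0.1 in place of 1 the change was 0.82, and with 5 it was 0.16.

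Nr4a2 (Nurr1), known for its part in dopaminergic neurons and for restraining inflammatory genes in microglia, had 5.25, 7.19 and 6.47 FPKM in C13 replicates 1, 2 and 3, against 5.00, 2.87 and 5.35 FPKM in vehicle replicates 1, 2 and 3. The groups overlapped, since C13 replicate 1 lay below vehicle replicate 3, and vehicle replicate 2 was far below the rest. Its change of 0.46 (95% interval -0.03 to 0.94, limma adjusted p = 0.705) was 0.23 without that library (adjusted p = 0.392). The difference of each of the 3 Nr4a genes was above 0 with all 6 libraries and under each alternative run on it, also relative to the shift of 0.13 that rescaling to TPM gave the median of all genes (0.28, 0.49 and 0.55 for Nr4a1, Nr4a2 and Nr4a3), and none of the 3 passed the threshold in any of them.

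**Figure D3:**
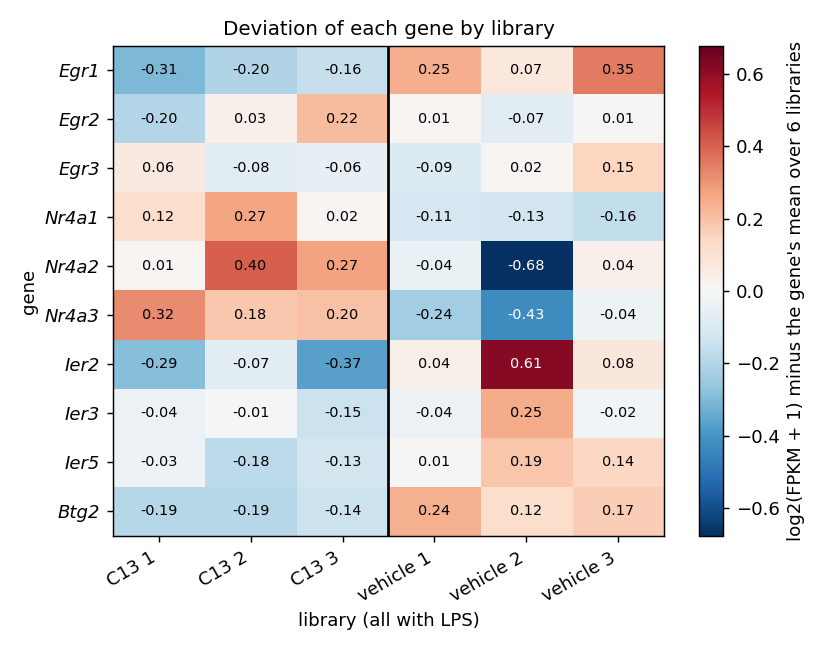
Deviation of each gene in log2(FPKM + 1) from its own mean over the 6 libraries (colour and printed values), with C13 libraries left and vehicle libraries right of the line. Egr1 and Btg2 are below their mean in all C13 libraries and above it in all vehicle libraries, while the extremes of Ier2 (0.61) and Nr4a2 (-0.68) fall in vehicle replicate 2.

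Btg2, which with its relative Tob1 links RNA to the CCR4-NOT deadenylase and slows the cell cycle, was lower with C13. It had 22.2, 22.2 and 23.0 FPKM in C13 replicates 1, 2 and 3, against 30.3, 27.8 and 28.8 FPKM in vehicle replicates 1, 2 and 3. The groups were well apart, with a highest C13 value of 23.0 FPKM and a lowest vehicle value of 27.8 FPKM. The mean was 22.5 ± 0.463 FPKM with C13 and 28.96 ± 1.29 FPKM with vehicle (SD, n = 3 each), a ratio of 0.776. The difference was -0.35 with a 95% interval of -0.53 to -0.17 (limma, unadjusted p = 0.00252, adjusted p = 0.359). Without vehicle replicate 2 it was -0.38 with an adjusted p of 0.0332 in limma, so that Btg2 fell by that test.

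Ier2, a nuclear protein of the early response encoded by 1 exon, had 20.3, 23.7 and 19.1 FPKM in C13 replicates 1, 2 and 3, against 25.7, 38.8 and 26.5 FPKM in vehicle replicates 1, 2 and 3. All C13 libraries lay below all vehicle libraries, but the size of the difference rests in part on vehicle replicate 2. The difference was -0.49 (95% interval -0.88 to -0.09, limma unadjusted p = 0.0225, adjusted p = 0.596) and without that library -0.30 (adjusted p = 0.16). Ier5, which activates the heat shock factor HSF1 together with the phosphatase PP2A, had 57.3, 51.8 and 53.7 FPKM with C13, against 59.0, 67.1 and 64.7 FPKM with vehicle. These groups were separate by a narrow margin between C13 replicate 1 and vehicle replicate 1 (change -0.22, 95% interval -0.43 to -0.02, limma unadjusted p = 0.0348, adjusted p = 0.63).

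Ier3, an inhibitor of apoptosis and a regulator of ERK dephosphorylation that is also an NF-kappaB target, was the most abundant member. It had 215, 219 and 199 FPKM in C13 replicates 1, 2 and 3, against 215, 262 and 218 FPKM in vehicle replicates 1, 2 and 3. The groups overlapped and only vehicle replicate 2 stood above the others. The difference was -0.13 (95% interval -0.38 to 0.12, limma adjusted p = 0.821), and without that library -0.036 (95% interval -0.16 to 0.089). It was 0.030 with quantile normalization.

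Ratios between genes of 1 library do not depend on how the library total was scaled, and they are given as a description because the pairs were picked after the values were seen. Nr4a1 over Egr1 was 0.867, 0.899 and 0.725 in C13 replicates 1, 2 and 3, against 0.493, 0.554 and 0.440 in vehicle replicates 1, 2 and 3. The C13 ratios lay above all vehicle ratios, with means of 0.830 ± 0.0927 with C13 and 0.496 ± 0.0568 with vehicle (SD, n = 3 each). Nr4a1 over Btg2 did not overlap either, at 0.923 ± 0.0994 with C13 and 0.587 ± 0.0246 with vehicle. Nr4a1 was higher and Egr1 and Btg2 lower in every C13 library than in every vehicle library, so neither ratio could overlap. Egr2 over Egr1 was 0.117, 0.134 and 0.152 in the C13 libraries, against 0.0953, 0.10 and 0.0884 in the vehicle libraries, again without overlap. By contrast Btg2 over Egr1 overlapped, at 0.899 ± 0.0385 with C13 and 0.844 ± 0.0715 with vehicle, as did Ier3 over Ier5, at 3.90 ± 0.289 with C13 and 3.64 ± 0.272 with vehicle. Nr4a3 over Nr4a1 overlapped too, at 0.0757 ± 0.0101 with C13 and 0.0509 ± 0.0157 with vehicle.

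**Figure D4:**
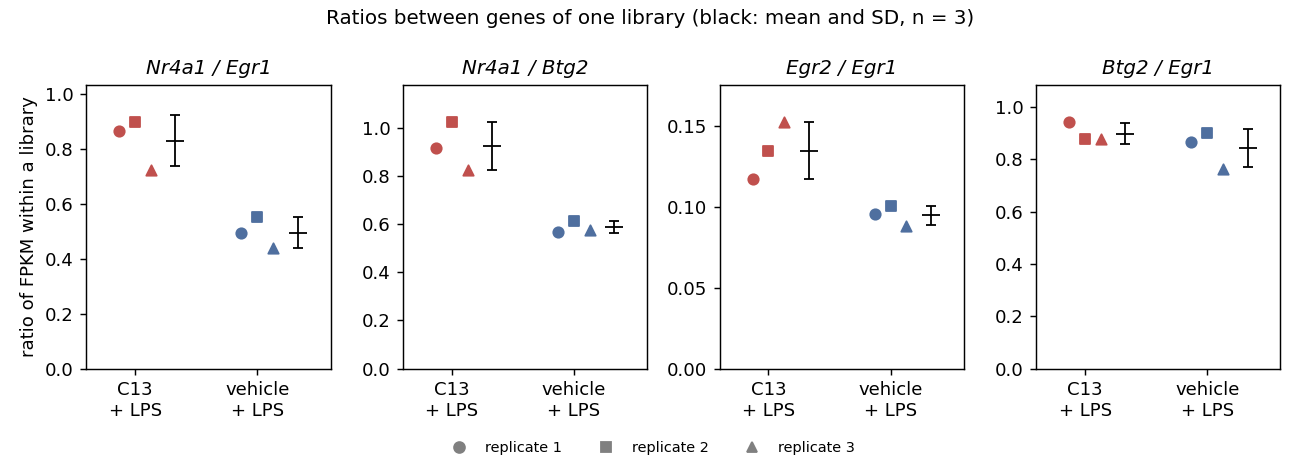
Ratios of FPKM between pairs of genes within each library (linear axes from 0), C13 with LPS left and vehicle with LPS right, with the mean and SD (n = 3) in black. The ratios Nr4a1 / Egr1, Nr4a1 / Btg2 and Egr2 / Egr1 do not overlap between the groups, while Btg2 / Egr1 does. For Nr4a1 / Egr1 and Nr4a1 / Btg2 this follows from the separate groups of the single genes.

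Most other genes of the early response had lower values with C13. Of 50 further immediate early genes 49 were tested, and 0 passed with all 6 libraries. Of the 49, 39 had a difference below 0 and 10 above, where 5715 of the 11412 genes tested lay below 0 and 5697 above. The median was -0.20, beside -0.00028 over all genes tested. With rescaling to TPM, which moved all genes up by a median of 0.13, 30 of the 49 were below 0 and the median was -0.066, or -0.19 relative to all genes. The C13 libraries lay below all vehicle libraries in 20 of the 49, against 9.78% of all tested genes, and above them in 1, against 6.83%. That gene was Fosl2, a component of AP-1, with a difference of 0.56, or 0.32 without vehicle replicate 2. Without vehicle replicate 2, limma called 0 of the 49 higher, against 0.412% of tested genes, and 8 lower, against 1.07%. The 8 were Csrnp1, Dusp2, Dusp5, Myc, Ctgf, Errfi1, Mafk and Klf6, and the median of the 49 was -0.16. The 2 with the smallest p were Csrnp1, a nuclear protein with a cysteine- and serine-rich region, at 18.1 ± 0.603 FPKM with C13 and 27.7 ± 2.17 FPKM with vehicle (limma adjusted p = 0.17), and the MAP kinase phosphatase gene Dusp2, at 19.2 ± 2.47 FPKM with C13 and 29.9 ± 2.12 FPKM with vehicle (limma adjusted p = 0.225, SD, n = 3 each). Without vehicle replicate 2 the change of Csrnp1 was -0.59 (limma adjusted p = 0.0260) and that of Dusp2 -0.57 (0.0496). Part of these genes was known from an earlier look at the same data to be lower, so the list is no independent evidence.

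The genes of regulators upstream of the members had median differences close to 0 once vehicle replicate 2 was left out. Of 6 SRF and ternary complex factor genes, 0 passed and the median difference was 0.13, or 0.015 without vehicle replicate 2. Elk1, a ternary complex factor, had 7.95 ± 0.588 FPKM with C13 and 6.48 ± 1.01 FPKM with vehicle, and Mkl2, an actin-regulated SRF coactivator, 1.97 ± 0.234 FPKM with C13 and 1.55 ± 0.404 FPKM with vehicle (SD, n = 3 each). The difference of Elk1 was 0.27, or 0.15 without vehicle replicate 2, and that of Mkl2 0.23, or 0.12. In 2 of the 6, among them Elk1, all C13 libraries lay above all vehicle libraries, against 6.83% of tested genes. Of 8 CREB and coactivator genes, 0 passed and the median was 0.11, or -0.031 without vehicle replicate 2. Crem, whose short isoform represses CRE promoters, had 11.1 ± 0.726 FPKM with C13 and 13.9 ± 0.88 FPKM with vehicle (change -0.30, limma adjusted p = 0.524). Its groups did not overlap, and values per gene do not separate its isoforms. Atf1, a relative of CREB, had 19.5 ± 1.03 FPKM with C13 and 16.6 ± 2.34 FPKM with vehicle (difference 0.23, or 0.11 without vehicle replicate 2). Its groups did not overlap either, in the other direction. Over all tested genes, 9.78% were separate with C13 lower and 6.83% with C13 higher. Of 14 genes of the ERK cascade 13 were tested, 0 passed, and the median was 0.026, or 0.00014 without vehicle replicate 2. Among them the RSK kinase gene Rps6ka2 had 5.52 ± 0.409 FPKM with C13 and 4.64 ± 0.680 FPKM with vehicle (difference 0.21, or 0.12 without vehicle replicate 2). These are RNA levels and carry no information on phosphorylation.

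Partners and relatives of the members were tested in the same way, and 0 passed. Nab2, a corepressor of EGR factors that is itself an EGR target, had 26.5, 24.3 and 23.5 FPKM in C13 replicates 1, 2 and 3, against 27.3, 34.2 and 29.2 FPKM in vehicle replicates 1, 2 and 3. All C13 libraries lay below all vehicle libraries, as in 9.78% of tested genes, with a narrow margin between C13 replicate 1 and vehicle replicate 1. The change was -0.27 (limma adjusted p = 0.632), and -0.18 without vehicle replicate 2. Of the EGR partners 2 of 4 were tested, 1 with a difference above 0 and 1 below. Their median was -0.074, or -0.12 without vehicle replicate 2. Of the NR4A partners 3 of 5 were tested, and Rxra, a retinoid X receptor that pairs with NR4A1 and NR4A2, had 8.95 ± 0.397 FPKM with C13 and 7.11 ± 0.82 FPKM with vehicle without overlap (difference 0.30, limma adjusted p = 0.606, and 0.22 without vehicle replicate 2). Of the 3 tested, 2 had a difference above 0 and 1 below, and their median was 0.30, or -0.0066 without vehicle replicate 2. In the BTG and TOB family 4 of 5 were tested, and Btg1, the closest relative of Btg2, had 29.9 ± 1.59 FPKM with C13 and 27.8 ± 1.21 FPKM with vehicle, with overlapping groups. The 11 tested genes of the CCR4-NOT complex had a median difference of 0.066, or -0.021 without vehicle replicate 2. Its scaffold gene Cnot1 had 13.3 ± 1.11 FPKM with C13 and 11.3 ± 2.71 FPKM with vehicle, where replicate 2 had 8.28 FPKM. The difference was 0.24, or 0.045 without that library. Its deadenylase gene Cnot8 had 27.3 ± 0.579 FPKM with C13 and 29.6 ± 3.25 FPKM with vehicle (difference -0.11, or -0.024 without vehicle replicate 2). Among 5 relatives and partners of the IER proteins Ppp2r2a, a PP2A regulatory subunit gene, had 31.4 ± 0.853 FPKM with C13 and 34.0 ± 1.08 FPKM with vehicle (change -0.11, limma adjusted p = 0.818, SD, n = 3 each).

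**Figure D5:**
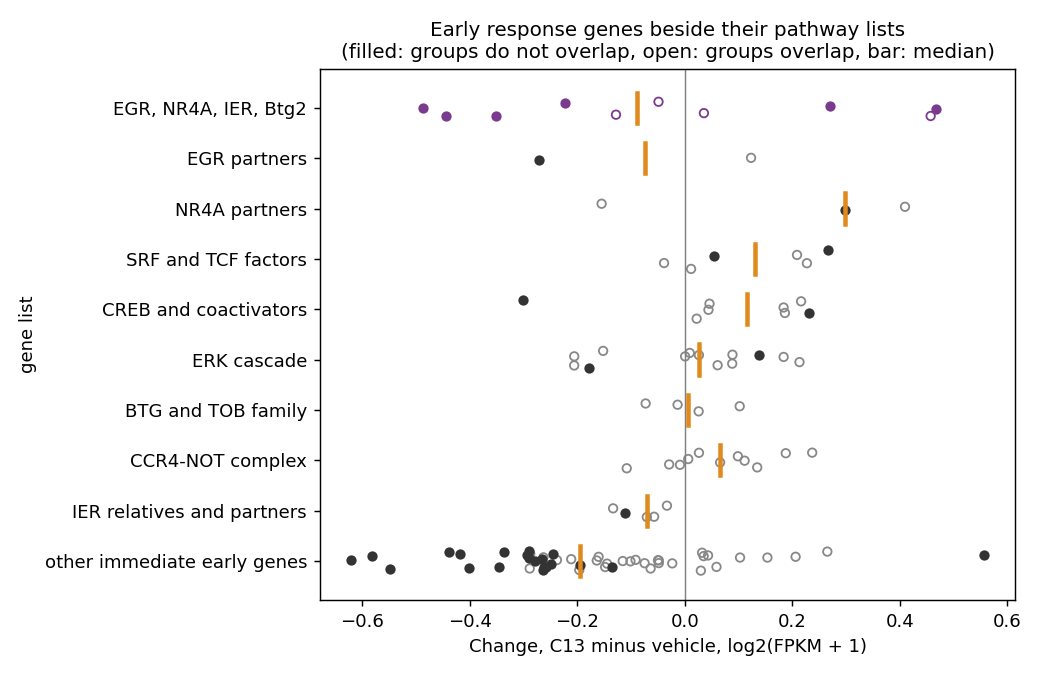
Change in log2(FPKM + 1), C13 minus vehicle, of each tested gene in the 10 early response genes (purple) and 9 pathway lists (grey), with filled points where the groups do not overlap and orange bars at the medians. The other immediate early genes have a median of -0.20 with Fosl2 highest at 0.56, while the median of the SRF and ternary complex factor genes is 0.13 with all 6 libraries and 0.015 without vehicle replicate 2.

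The genes whose profile over the 6 libraries was most like that of a member were found by the mean absolute difference of their centred log2(FPKM + 1) values, among 8041 or 8042 genes of at least 5 FPKM. For Egr1 they were the ERK phosphatase gene Dusp5 (0.041), the EGF receptor inhibitor gene Errfi1 (0.0564) and Mrgbp (0.0588). Dusp5 had 23.4, 22.3 and 24.1 FPKM in C13 replicates 1, 2 and 3, against 32.7, 29.0 and 34.2 FPKM in vehicle replicates 1, 2 and 3, following Egr1 in all but the order of the C13 libraries. For Btg2 they were Cd276 (0.0227), Casp12 (0.0335) and Pcgf5 (0.0398), and 323 genes lay within 0.1 of its profile, against 49 for Egr1, 47 for Ier2 and 24 for Nr4a3. These counts are not directly comparable, because the profile of Btg2 varied least. Its mean absolute deviation from its own mean was 0.176, against 0.222 for Egr1, 0.244 for Ier2 and 0.233 for Nr4a3. For Nr4a3 they were Tbc1d23 (0.0649), Mex3b (0.0754) and a row whose symbol had been turned into a date. For Ier2 they were Timp1 (0.0574), Mt2 (0.0636) and Zmat5 (0.0654), each of which was highest in vehicle replicate 2.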

How the data were processed

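The authors' deposited table gives 1 FPKM value per gene and library. TopHat2 2.1.0, Cufflinks and mm10 are named in the submitters' processing notes, and the annotation used is not stated there. Columns were matched to samples by description and to groups by title. Values were taken as log2(FPKM + 1), with a filter of at least 1 FPKM on average, and 11412 genes were fitted together with limma 3.58.1 (R 4.3.3, intensity trend, two-sided, Benjamini-Hochberg adjustment over those genes, threshold 0.05). FPKM depends on transcript length and library total, so a library skewed by length moves short and long genes apart. No count test was run. Depth was read from the smallest step above 0.01 FPKM in genes with 1 transcript of at least 1500 nt, and fragments per gene assume the longest coding transcript. Structure, length and GC came from GENCODE M21 on GRCm38 (96.3% of tested genes), and starts count from 1. Members, lists and motifs were chosen with earlier results of these data known. Beside the members, the text names the 2 genes with the smallest p of each list (1 where fewer than 6 were tested), markers, and the 3 nearest profiles to 1 gene per family. Fosl2, the genes called without vehicle replicate 2, the ratios and the markers given singly were picked after their values were seen. Some genes that this rule names are not reported here. The fit was tested on simulated data. Of 17 other settings 2 were added after seeing the data.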

Additional observations from a re-analysis of the deposited data

How the results depend on the processing

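The count of genes past the threshold was 0 with all 6 libraries. It was 7 with quantile normalization, 2 with rescaling to TPM, 12 with no filter, 1 without the intensity trend, 436 with array weights estimated gene by gene, 42 with array weights by REML (which stopped before it converged) and 52 once a spline on length and GC was taken out. It ranged from 0 to 169 when 1 library was left out, and 169 is the count without vehicle replicate 2. The REML weights and the spline removal were chosen after seeing the data. The median change of the 10 members, -0.089, was 0.019 with rescaling to TPM (which moved the median of all genes by 0.13), -0.22 over the 7 members above 5 FPKM, -0.031 with REML weights, -0.040 after the spline removal, and -0.14 to -0.044 when 1 library was left out. Of 167 values for single members under the alternatives 161 kept their direction. The others were Egr2 with quantile normalization (-0.049) and without C13 replicate 3 (-0.064, the lowest with 1 library left out, the highest being 0.14), Egr3 with TPM (0.031) and without vehicle replicate 3 (0.012, the highest with 1 library left out, the lowest being -0.11), and Ier3 with quantile normalization (0.030) and TPM (0.0070). Relative to the shift of all genes, the TPM values are -0.098 for Egr3, -0.12 for Ier3 and -0.11 for the median, each below 0 as with FPKM. Only Egr1 and Btg2 passed anywhere, without vehicle replicate 2 and with gene-by-gene weights (limma adjusted p = 0.00477 and 0.0103), and over all alternatives their adjusted p ranged from 0.00477 and 0.0103 to 0.991. After the spline removal it was 0.0605 and 0.11. The cause of these differences was not tested. Same-numbered libraries deviated together with correlations of only 0.0886, 0.129 and 0.0978 across genes, so the numbers were not taken as pairs, although each library correlated best with its own number. These are the numbers of the sample titles, and the descriptions number the libraries differently. With a replicate block 0 genes passed and the change of Egr1 was -0.44. Egr3 and Nr4a3 rest on about 37 to 111 fragments a library, and the part of depth in their values was not tested.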
